A study of Mus musculus with 8 samples.

Results

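The 10 genes described here encode chromatin regulators known from meiosis and spermiogenesis, namely Brdt, Epc1, Kdm3a, Ehmt2, Setdb1, Suv39h2, Chd5, Cdyl, Dot1l and Dnmt3l. They were taken by gene name from a table that lists 54532 genes. No measured value served as a criterion, but earlier results of these data were known when they were chosen. RNA had been sequenced from spermatocytes of C57BL/6J mice in 8 groups of 1 library each. The groups were pachytene (P) and leptotene or zygotene (L/Z) cells from MFN2 WT and from MFN2 cKO mice, each at postnatal day (PD) 24 and at PD 52. By the labels, MFN2 WT mice carried Mfn2 loxp/loxp without Cre, so the floxed allele was shared by all 8 groups, while MFN2 cKO mice carried Mfn2 loxp/loxp together with Stra8-Cre, a Cre that acts in male germ cells from the premeiotic stage on and not in the somatic cells of the testis. Mfn2 encodes mitofusin 2, a protein of mitochondrial fusion, and the floxed part is exon 6. P and L/Z spermatocytes had been separated by size through sedimentation in a BSA gradient, which enriches a stage and does not purify it. The question was how the RNA of these regulators varied with stage, age and the loss of MFN2.

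In male germ cells chromatin is rebuilt in steps. During meiosis, methylation of histone H3 at lysine 9 (H3K9) is written and erased at defined times, and it takes part in synapsis and in silencing of the sex chromosomes. After meiosis, histones become hyperacetylated, nucleosomes are opened, and transition proteins and then protamines replace the histones in elongating spermatids. Brdt, Epc1, Chd5, Cdyl, Kdm3a and Dot1l have known roles in that later exchange or in the genes that serve it, Ehmt2, Setdb1 and Suv39h2 write H3K9 methylation, and Dnmt3l acts before meiosis, when DNA methylation is laid down on transposons and imprinted genes.

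Promoter windows of 250 bases before and 50 after a gene's start were taken from RefSeq (GRCm38.p6). In the set of starts used here, 9 of the 10 genes had a window, and none was used for Epc1. The windows of Chd5, Cdyl, Kdm3a and Suv39h2 are shown because Chd5, Kdm3a and Suv39h2 passed the test for stage or age described below, and Cdyl varied with Chd5. Of each window the bases outside the annotated gene are printed, 5′ to 3′ on the strand of the gene. Capitals mark TGACG, the core of the cAMP response element, and GGGCGG, the GC box, each on either strand. These motifs did not overlap each other in any of the windows shown.
Chd5 (GRCm38.p6, chr4:152338401-152338650, forward strand): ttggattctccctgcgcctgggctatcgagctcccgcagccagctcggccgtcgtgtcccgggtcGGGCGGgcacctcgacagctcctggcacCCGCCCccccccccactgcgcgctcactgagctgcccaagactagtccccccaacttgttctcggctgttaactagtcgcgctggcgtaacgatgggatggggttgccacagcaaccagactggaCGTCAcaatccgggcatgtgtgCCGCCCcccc
Cdyl (GRCm38.p6, chr13:35659612-35659832, forward strand): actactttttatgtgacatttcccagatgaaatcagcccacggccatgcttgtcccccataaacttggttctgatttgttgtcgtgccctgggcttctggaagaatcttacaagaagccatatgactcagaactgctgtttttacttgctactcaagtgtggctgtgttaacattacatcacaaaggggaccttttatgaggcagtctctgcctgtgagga
Kdm3a (GRCm38.p6, chr6:71632991-71633167, reverse strand): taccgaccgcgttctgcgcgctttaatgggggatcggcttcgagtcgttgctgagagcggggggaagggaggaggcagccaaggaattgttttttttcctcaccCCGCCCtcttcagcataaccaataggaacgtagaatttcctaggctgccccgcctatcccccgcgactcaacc
Suv39h2 (GRCm38.p6, chr2:3475032-3475236, reverse strand): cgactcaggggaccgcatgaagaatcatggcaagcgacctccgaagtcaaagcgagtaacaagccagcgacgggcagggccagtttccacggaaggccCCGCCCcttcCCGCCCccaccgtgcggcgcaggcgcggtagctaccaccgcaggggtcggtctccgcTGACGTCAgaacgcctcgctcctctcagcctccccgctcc

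The printed Suv39h2 window held the full palindrome TGACGTCA, which starts 85 bases before the gene's RefSeq start and was present in 1.79% of all 32851 windows of this length. In that window TGACG was counted on each strand, and both matches are part of the palindrome. The Chd5 window held TGACG on the opposite strand, 32 bases before the start, and 20.8% of all windows held this core. GC boxes were counted 3 times in the whole windows of Chd5, Kdm3a and Suv39h2 alike, and 35.7% of all windows held at least 1. The Cdyl window at the 5′ end of the gene held neither motif, had 3 CpG dinucleotides and a ratio of observed to expected CpG of 0.181, which was above that of 25.9% of all windows. A further Cdyl start, 81569 bases into the gene, had 34 CpG dinucleotides and 8 GC boxes, so the starts of Cdyl differed in base composition. The corresponding CpG ratios were 0.877 for Chd5, 0.878 for Kdm3a, 0.943 for Suv39h2 and 0.272 for Dnmt3l. Every RefSeq start of Dnmt3l lay inside the annotated gene, so no sequence of it is printed. These matches describe letters, and binding was not measured.

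The libraries held between 14340665 and 20379950 reads on genes. Values are in fragments per kilobase of gene and library size (FPKM). The library size implied by the values was not the reads on genes. In L/Z of MFN2 WT it was 18894277 against 16519210 reads at PD 24 and 14967673 against 16051932 at PD 52. In L/Z of MFN2 cKO it was also above the reads at PD 24 and below them at PD 52. Relative to depth, this raises L/Z values of PD 52 over those of PD 24. In P the size was below the reads in MFN2 WT at PD 24 and above them in the other libraries. Its part in the age effects below was not tested. Reads recovered from the FPKM gave 95% counting intervals. These cover only the error of counting, because reads copied by PCR and not tagged by molecule are not independent. The level of Mfn2 itself, which checks the genotype labels, was below MFN2 WT in the MFN2 cKO library of all 4 pairs, from 1.24-fold in P at PD 52 to 2.39-fold in L/Z at PD 24. The stage labels were checked against markers, which went in both directions. Of the 9 pachytene markers, Piwil1, Hspa2, Mybl1 and Adam2 were higher in P in all 4 comparisons of the same genotype and age, and Ccna1, Pgk2 and Spag6 were higher in L/Z in all 4. Piwil1 was between 16.0 and 40.5 FPKM in L/Z and between 168 and 278 FPKM in P, while Pgk2 was between 240 and 651 FPKM in L/Z and between 135 and 277 FPKM in P. Hist1h1t, a histone of mid-pachytene cells, was low throughout, between 1.45 and 5.88 FPKM, and the sum of the 9 was between 2515 and 4129.8 FPKM in L/Z and between 2883 and 4366 FPKM in P, with overlap. The 11 markers of L/Z spermatocytes summed to between 363 and 416 FPKM in L/Z and between 420.5 and 499 FPKM in P. Of these 11, the early meiotic genes Dmc1, Rec8, Prdm9 and Smc1b were higher in L/Z in all 4 comparisons, as the labels have it, and Sycp2, Sycp3, Meiob, Hormad1 and Spo11 were higher in P in all 4. Stage below is stage as labelled. The 11 markers of round and elongating spermatids summed to 1618, 889, 4722 and 5969 FPKM in the L/Z libraries of PD 24 MFN2 WT, PD 24 MFN2 cKO, PD 52 MFN2 WT and PD 52 MFN2 cKO. In the P libraries of the same order they summed to 919, 336, 2195 and 1519.9 FPKM, so spermatid RNA was present in every library and higher in L/Z than in P of the same genotype and age.

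All 10 regulators were detected in all 8 libraries, and all 10 passed the filter, an FPKM above 1 in any library. Since FPKM is per length of gene, levels can be compared between genes, though only roughly. The length counts all annotated exon bases of a gene, so a gene read from shorter transcripts appears lower. By mean FPKM over the 8 libraries the order was Ehmt2 (88.9), Dot1l (72.7), Brdt (61.1), Chd5 (35.1), Kdm3a (29.4), Cdyl (23.6), Setdb1 (14.3), Epc1 (10.9), Suv39h2 (8.46) and Dnmt3l (3.08). The ranges over libraries overlapped between each gene and the next in this order, and the genes differed more in their spread. The highest library exceeded the lowest 1.44-fold for Ehmt2, 1.46-fold for Epc1 and 1.50-fold for Brdt, and 12.4-fold for Chd5, 12.1-fold for Cdyl and 16.2-fold for Dnmt3l. Among the 11566 genes that exceeded an FPKM of 1 throughout, this ratio had a median of 2.52. The ratio of Chd5 was larger than that of 94.7% of them and that of Cdyl than 94.4%, while for Ehmt2, Epc1 and Brdt the shares were 5.14%, 5.88% and 7.88%. In bulk samples such as these, fewer cells of a type and less RNA per cell cannot be told apart.

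**Figure D1:**
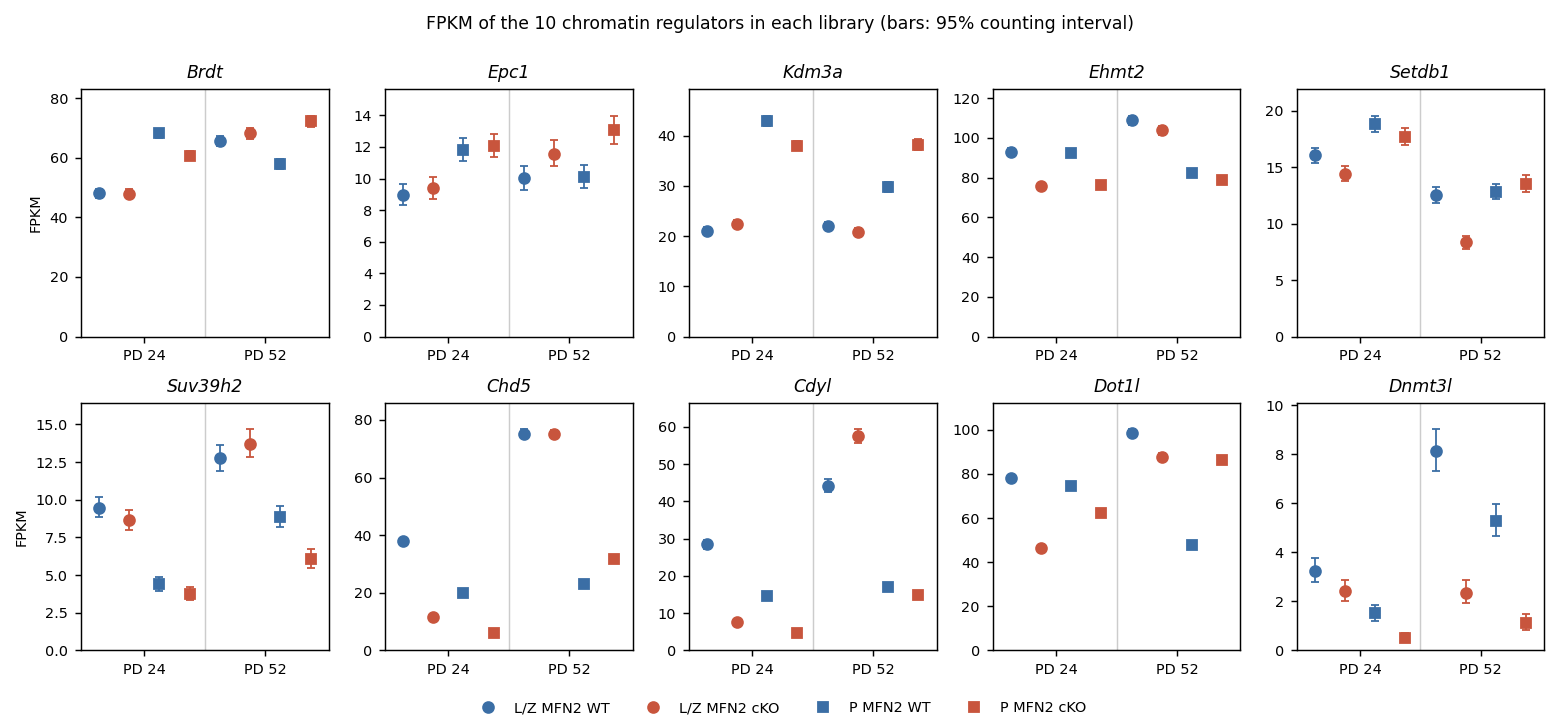
FPKM (vertical axis, from 0) of each of the 10 regulators in the 8 libraries, with L/Z as circles, P as squares, MFN2 WT in blue and MFN2 cKO in red, and bars for the 95% counting interval. Brdt, Epc1 and Ehmt2 stayed within 1.50-fold over the libraries, Kdm3a was higher in each P library than in each L/Z library, and Chd5 and Cdyl had their lowest values, 6.07 and 4.76, in P of MFN2 cKO at PD 24.

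Within a pair of MFN2 cKO and MFN2 WT libraries of the same stage and age there is no replicate, so changes are given as values, with a change of at least 2-fold on the log2(FPKM + 1) scale counted. For genes of low FPKM the added 1 shrinks the change. At PD 24 the same 2 regulators, Chd5 and Cdyl, were at least 2-fold lower in MFN2 cKO in both L/Z and P, and at PD 52 it was Dnmt3l in both. In L/Z at PD 24 this made 2 of 10 regulators, where 10.5% of the 17664 genes above the filter changed at least 2-fold and 7.03% were lower by that much. In P at PD 24 it was again 2 of 10, beside 8.08% of genes in either direction and 6.29% lower. At PD 52 it was 1 of 10 in L/Z, beside 7.95% in either direction and 3.12% lower, and 1 of 10 in P, beside 11.0% and 5.78%. No regulator was at least 2-fold higher in any pair. With so few genes, no excess over these shares is read from the counts. The median change of the 10 regulators was -0.22 in L/Z and -0.22 in P at PD 24, and -0.04 and 0.19 at PD 52, beside medians over all genes above the filter of 0.08, -0.10, 0.02 and -0.05.

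**Figure D2:**
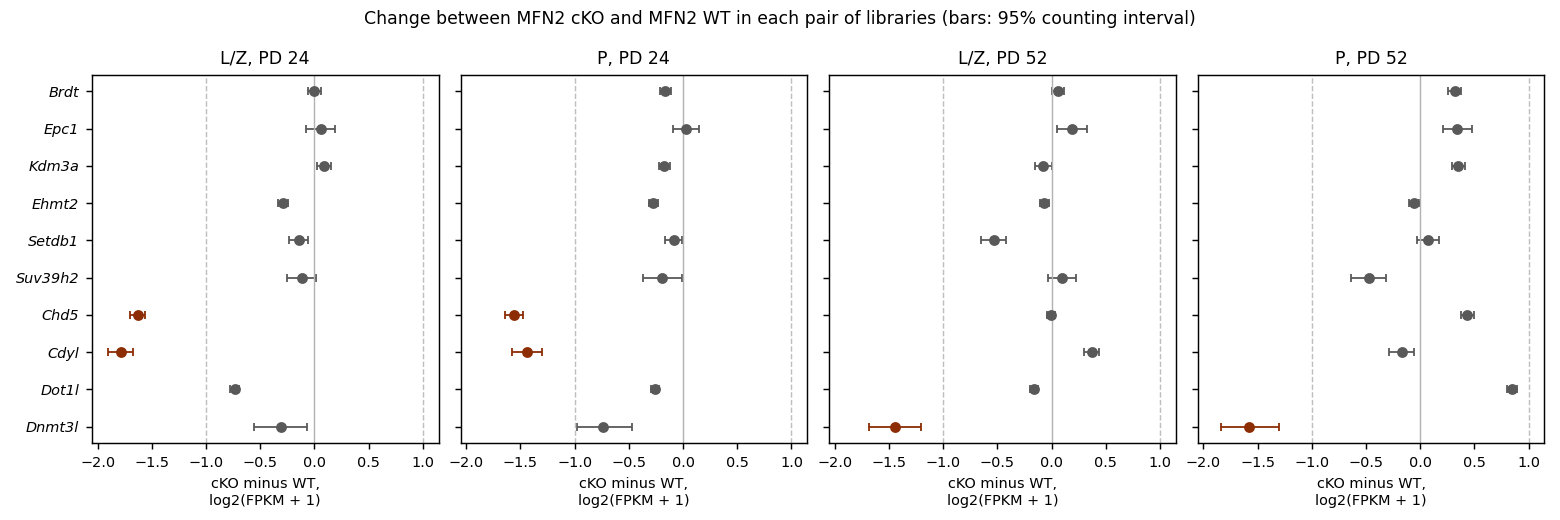
Change of each regulator between MFN2 cKO and MFN2 WT (horizontal axis, difference in log2(FPKM + 1)) in the 4 pairs of libraries, with bars for the 95% counting interval and dashed lines at a 2-fold change. Chd5 and Cdyl lie beyond the left line in both pairs of PD 24 and inside the lines at PD 52, and Dnmt3l lies beyond it in both pairs of PD 52.

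A genotype effect common to the 4 pairs was tested with limma on log2(FPKM + 1), with stage and age in the model and Benjamini-Hochberg adjustment over the 21175 genes that reached an FPKM above 1 in any library. None of the 10 regulators passed an adjusted p of 0.05, beside 3 of all genes (0.0142%), namely Hist1h2al, Gm11702 and Klf1, which were higher in MFN2 cKO. At an unadjusted p under 0.05, 1445 genes passed, with Dnmt3l the only regulator among them, and limma-voom on the recovered reads called 8 genes and no regulator. The stage effect, P minus L/Z, passed for 3 of 10 regulators, beside 25.4% of all genes. Kdm3a was higher in P, and Suv39h2 and Dnmt3l were lower. The age effect, PD 52 minus PD 24, passed for 2 of 10, Chd5 and Suv39h2, which were both higher at PD 52, beside 21.0% of all genes. The shares of regulators called were thus near the background. Each effect rests on 4 residual degrees of freedom, and nothing in the labels says that libraries came from separate animals, so that the p-values measure the spread between these libraries only.

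**Figure D3:**
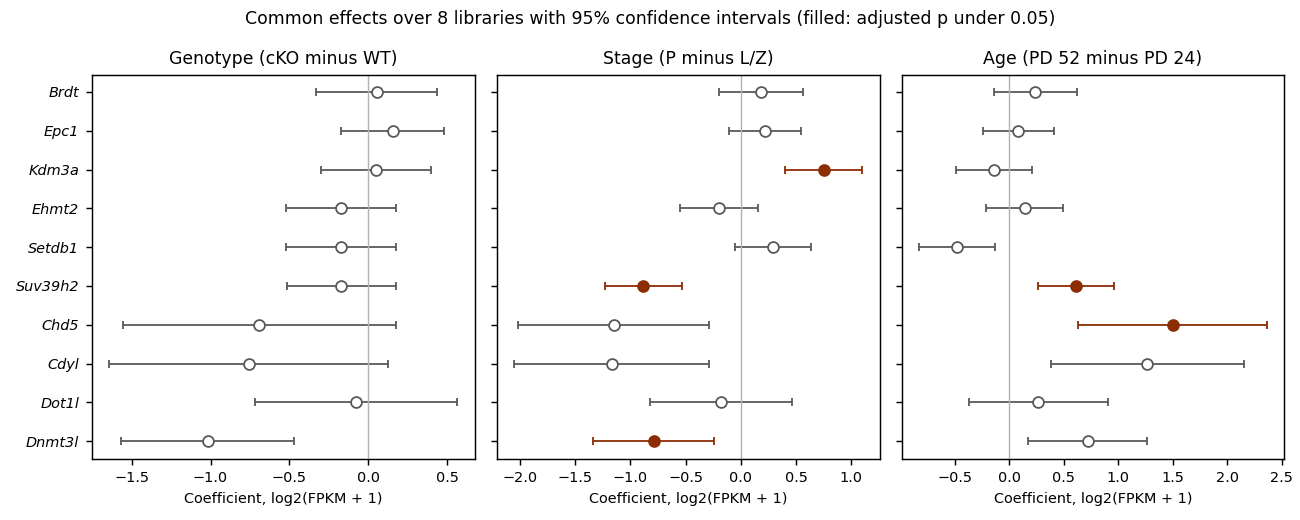
Coefficients of the common effects of genotype, stage and age (horizontal axes, log2(FPKM + 1)) for the 10 regulators with their 95% confidence intervals from limma over 8 libraries, filled where the adjusted p was under 0.05. Filled points are Kdm3a, Suv39h2 and Dnmt3l for stage, Suv39h2 and Chd5 for age, and none for genotype.

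Brdt encodes a testis-specific protein whose bromodomains read acetylated histones. At PD 24 its FPKM was 48.0 and 48.0 in L/Z of MFN2 WT and MFN2 cKO and 68.2 and 60.7 in P, and at PD 52 it was 65.6 and 68.2 in L/Z and 57.8 and 72.2 in P. The lowest values were both L/Z libraries of PD 24, and the groups of MFN2 WT and MFN2 cKO overlapped. The common effect of genotype was 0.05 ± 0.16 (SE, limma, adjusted p = 0.979), with a 95% confidence interval of -0.33 to 0.43, so that a 2-fold effect common to the pairs lay outside it. The stage effect was 0.18 ± 0.16 (limma, adjusted p = 0.432) and the age effect 0.24 ± 0.16 (limma, adjusted p = 0.310). Brdt (ENSMUSG00000029279) lies at chr5:107331159-107387058 of GRCm38, forward strand, and none of its exon bases is shared with another gene.

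Epc1, on chromosome 18, encodes a subunit of the NuA4/TIP60 histone acetyltransferase complex. It ranged from 8.98 to 13.1 FPKM with a median of 10.8. MFN2 cKO was above MFN2 WT in all 4 pairs, but by small amounts, from 0.03 in P at PD 24 to 0.34 in P at PD 52, and in both PD 24 pairs the counting interval included 0. The common effect of genotype was 0.15 ± 0.14 (SE, limma, adjusted p = 0.899), of stage 0.22 ± 0.14 (limma, adjusted p = 0.277) and of age 0.08 ± 0.14 (limma, adjusted p = 0.687). Of its exon bases 7.20% are shared with other genes, among them the antisense gene Gm28529, and the library kit does not mark strand, so these reads cannot be told apart. Gm28529 itself was at most 1.93 FPKM.

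Kdm3a encodes a demethylase that removes methyl groups from H3K9 and is known to act at the promoters of transition protein and protamine genes. In L/Z it was 21.1 and 22.5 FPKM at PD 24 and 21.9 and 20.8 FPKM at PD 52, MFN2 WT before MFN2 cKO. In P it was 43.0 and 38.0 FPKM at PD 24 and 29.8 and 38.2 FPKM at PD 52. The 4 P libraries were all above the 4 L/Z libraries, with P of MFN2 WT at PD 52 the lowest of the P libraries. The stage effect was 0.75 ± 0.15 (SE, limma, adjusted p = 0.0135). It kept its direction when any 1 library was left out, but the adjusted p (limma) was 0.0656 without L/Z MFN2 WT at PD 24, 0.0556 without P MFN2 cKO at PD 24 and 0.0540 without P MFN2 cKO at PD 52. Between genotypes the changes were 0.09 and -0.08 in L/Z and -0.17 and 0.35 in P, at PD 24 and PD 52, and the common effect was 0.05 ± 0.15 (limma, adjusted p = 0.979). No age effect was detected (-0.14 ± 0.15, limma, adjusted p = 0.504). Kdm3a (ENSMUSG00000053470) lies at chr6:71588972-71632990 of GRCm38, reverse strand, and its promoter window is among those printed above.

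Ehmt2, also known as G9a, writes mono- and dimethylation of H3K9 in early meiotic prophase and had the highest mean of the 10 regulators. At PD 24 it was 92.8 and 92.5 FPKM in L/Z and P of MFN2 WT, and 75.7 and 76.2 in MFN2 cKO. At PD 52 it was 109 and 82.1 FPKM in MFN2 WT and 104 and 78.9 in MFN2 cKO. MFN2 cKO was below MFN2 WT in all 4 pairs, by 1.23-fold in L/Z and 1.21-fold in P at PD 24 and by 1.05-fold and 1.04-fold at PD 52. With the further median-of-ratios scaling the change in P at PD 52 turned to 0.04, so the direction of that pair depends on the scaling. The common effect did not pass the test (-0.17 ± 0.15, SE, limma, adjusted p = 0.899), nor did stage (-0.20 ± 0.15, limma, adjusted p = 0.357) or age (0.14 ± 0.15, limma, adjusted p = 0.510). Ehmt2 (ENSMUSG00000013787) lies at chr17:34898469-34914052 of GRCm38, forward strand.

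Setdb1, a writer of H3K9 trimethylation known for silencing of the sex chromosomes in meiosis, was lower at PD 52 than at PD 24 in each of the 4 matched comparisons. In L/Z it went from 16.0 to 12.5 FPKM in MFN2 WT and from 14.4 to 8.35 FPKM in MFN2 cKO. In P it went from 18.8 to 12.8 FPKM and from 17.7 to 13.5 FPKM, and the 4 libraries of PD 52 were all below the 4 of PD 24. The age effect of -0.48 ± 0.15 (SE) did not pass (limma, adjusted p = 0.0555), but passed with protein-coding genes only (limma, adjusted p = 0.0426) and with limma-voom on recovered reads (adjusted p = 0.0389). Its lowest value, in L/Z of MFN2 cKO at PD 52, was 1.50-fold below MFN2 WT, while the other 3 pairs differed by -0.14, -0.09 and 0.07 on the log2 scale. The common effect of genotype was -0.17 ± 0.15 (limma, adjusted p = 0.899). Setdb1 (ENSMUSG00000015697) lies at chr3:95323525-95357202 of GRCm38, reverse strand, and shares 4.73% of its exon bases with the antisense genes Cers2 and Gm37500.

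Suv39h2, a testis-enriched writer of H3K9 trimethylation in heterochromatin, was the regulator called for both stage and age, and its direction was opposite to that of Kdm3a between stages. At PD 24 it was 9.48 and 8.65 FPKM in L/Z and 4.39 and 3.73 FPKM in P, MFN2 WT before MFN2 cKO. At PD 52 it was 12.8 and 13.7 FPKM in L/Z and 8.83 and 6.08 FPKM in P. Each L/Z library exceeded the P library of the same genotype and age, by 1.44-fold to 2.32-fold, although P of MFN2 WT at PD 52 overlapped the L/Z libraries of PD 24. The stage effect was -0.88 ± 0.15 (SE, limma, adjusted p = 0.00869) and passed without each library in turn, with adjusted p up to 0.0478 (limma). The age effect was 0.61 ± 0.15 (SE, limma, adjusted p = 0.0275), higher at PD 52 in 4 of 4 comparisons, from 0.39 to 0.87. It did not pass (limma) without L/Z MFN2 WT at PD 24 (adjusted p = 0.0903), P MFN2 WT at PD 24 (0.0645), P MFN2 cKO at PD 24 (0.111), L/Z MFN2 cKO at PD 52 (0.0815) or P MFN2 cKO at PD 52 (0.0660), nor without the filter on FPKM (0.0507). Between genotypes the largest change was -0.47 (-0.64 to -0.31) in P at PD 52, and the common effect was -0.17 ± 0.15 (limma, adjusted p = 0.899). Suv39h2 (ENSMUSG00000026646) lies at chr2:3455815-3475031 of GRCm38, reverse strand, and shares 9.98% of its exon bases with the antisense genes Dclre1c and Gm13184, of which the latter reached 6.94 FPKM, a level like that of Suv39h2 itself.

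Chd5 encodes a nucleosome remodeller of the chromodomain family that acts in spermatids, where it takes part in the exchange of histones for protamines. In MFN2 WT it was 37.9 FPKM in L/Z and 19.8 FPKM in P at PD 24. In MFN2 cKO of the same age it was 11.5 FPKM in L/Z and 6.07 FPKM in P, or 3.28-fold and 3.27-fold lower. At PD 52 it was 75.3 and 75.1 FPKM in L/Z of MFN2 WT and MFN2 cKO. In P at PD 52 it was 23.2 and 31.7 FPKM, so MFN2 cKO was then higher. The log2 changes between genotypes were -1.63 (-1.70 to -1.56) in L/Z and -1.56 (-1.65 to -1.47) in P at PD 24, with 95% counting intervals in parentheses. They were -0.00 (-0.04 to 0.03) and 0.44 (0.37 to 0.50) at PD 52, so the lower level of MFN2 cKO was seen at PD 24 in both stages and in neither at PD 52. The difference of the genotype effect between ages was 1.81 ± 0.37 (SE) with an unadjusted p of 0.00149 from limma, and it did not pass over all genes (limma, adjusted p = 0.172), whereas limma-voom on recovered reads gave 1.93 (adjusted p = 0.0197). Chd5 (ENSMUSG00000005045) lies at chr4:152338651-152390194 of GRCm38, forward strand, and shares 1.05% of its exon bases with the antisense gene Gm13645.

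With age, Chd5 went one way in all 4 comparisons. It rose by 1.50 ± 0.37 (SE, log2) from PD 24 to PD 52 (limma, adjusted p = 0.0291), with changes of 0.97 and 0.21 in L/Z and P of MFN2 WT and of 2.60 and 2.21 in MFN2 cKO. The call was lost (limma) without L/Z MFN2 WT at PD 24 (adjusted p = 0.0644), L/Z MFN2 cKO at PD 24 (0.0682), P MFN2 cKO at PD 24 (0.101), L/Z MFN2 WT at PD 52 (0.0531), L/Z MFN2 cKO at PD 52 (0.0968) or P MFN2 cKO at PD 52 (0.0892), and without the filter on FPKM (0.0764). Each P library was below the L/Z library of the same genotype and age, by 1.90-fold to 3.25-fold. The stage effect of -1.15 ± 0.37 just missed the threshold (limma, adjusted p = 0.0575) and passed with protein-coding genes only (limma, adjusted p = 0.0439) and with limma-voom (adjusted p = 0.0297).

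Cdyl, whose protein joins a chromodomain to a fold that hydrates crotonyl-CoA and so lowers histone crotonylation in spermatids, followed a course like that of Chd5. At PD 24 it was 28.4 and 7.52 FPKM in L/Z and 14.6 and 4.76 FPKM in P, MFN2 WT before MFN2 cKO. At PD 52 it was 44.3 and 57.4 FPKM in L/Z and 17.0 and 15.0 FPKM in P. MFN2 cKO was thus 3.78-fold lower in L/Z and 3.07-fold lower in P at PD 24, and at PD 52 it was 1.30-fold higher in L/Z and 1.13-fold lower in P. The log2 changes were -1.79 (-1.91 to -1.67), -1.44 (-1.58 to -1.30), 0.37 (0.30 to 0.44) and -0.17 (-0.29 to -0.05) in that order. The difference between ages was 1.71 ± 0.45 (SE, limma, unadjusted p = 0.00628, adjusted p = 0.292), and 1.91 with limma-voom (adjusted p = 0.0438). Age (1.27 ± 0.38, limma, adjusted p = 0.0515) and stage (-1.17 ± 0.38, limma, adjusted p = 0.0580) came just short of the threshold, with Cdyl higher at PD 52 and in L/Z in all 4 comparisons each. Both passed with protein-coding genes only, at adjusted p of 0.0394 for age and 0.0443 for stage (limma). Cdyl (ENSMUSG00000059288) lies at chr13:35659833-35874063 of GRCm38, forward strand. Over the 8 libraries log2(FPKM + 1) of Chd5 and Cdyl had a Pearson correlation of 0.98, given as a description of libraries that differ in genotype, stage and age at once.

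Markers of spermatids moved with Chd5 and Cdyl at PD 24, with age and with stage, but not with Chd5 between genotypes at PD 52. The summed spermatid markers were 17.8-fold apart between the lowest library, P of MFN2 cKO at PD 24, and the highest, L/Z of MFN2 cKO at PD 52, and no marker of the 11 was at 0. At PD 24 the MFN2 cKO value was the lower one for all 11 in both stages. In L/Z at PD 52 all 11 were higher in MFN2 cKO, where Cdyl was higher and Chd5 differed by less than its counting interval. In P at PD 52 the sum was lower in MFN2 cKO, as were 10 of the 11 markers and Cdyl, while Chd5 was higher. Prm1, a protamine, was 424 and 9.48 FPKM in L/Z of MFN2 WT and MFN2 cKO at PD 24 and 218 and 3.30 FPKM in P. At PD 52 it was 2081 and 4717 FPKM in L/Z and 1120.0 and 384 FPKM in P. Set against the summed spermatid markers, Chd5 was 23.4 and 13.0 FPKM per 1000 FPKM of markers in L/Z of MFN2 WT and MFN2 cKO at PD 24, and 21.6 and 18.1 in P. At PD 52 the ratios were 15.9 and 12.6 in L/Z and 10.6 and 20.8 in P. The ratio of Chd5 thus spanned 2.22-fold over the libraries, where its FPKM spanned 12.4-fold. For Cdyl the ratio spanned 2.27-fold against 12.1-fold for its FPKM. For the other 8 regulators the ratio to the spermatid markers spanned between 4.83-fold and 37.6-fold. Because the marker sum itself spanned 17.8-fold, a gene of steady FPKM must give a wide ratio. No contrast with Chd5 and Cdyl is read from those spans. This comparison was chosen after the values were seen, and the part of spermatid RNA in the levels of Chd5 and Cdyl was not tested.

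**Figure D4:**
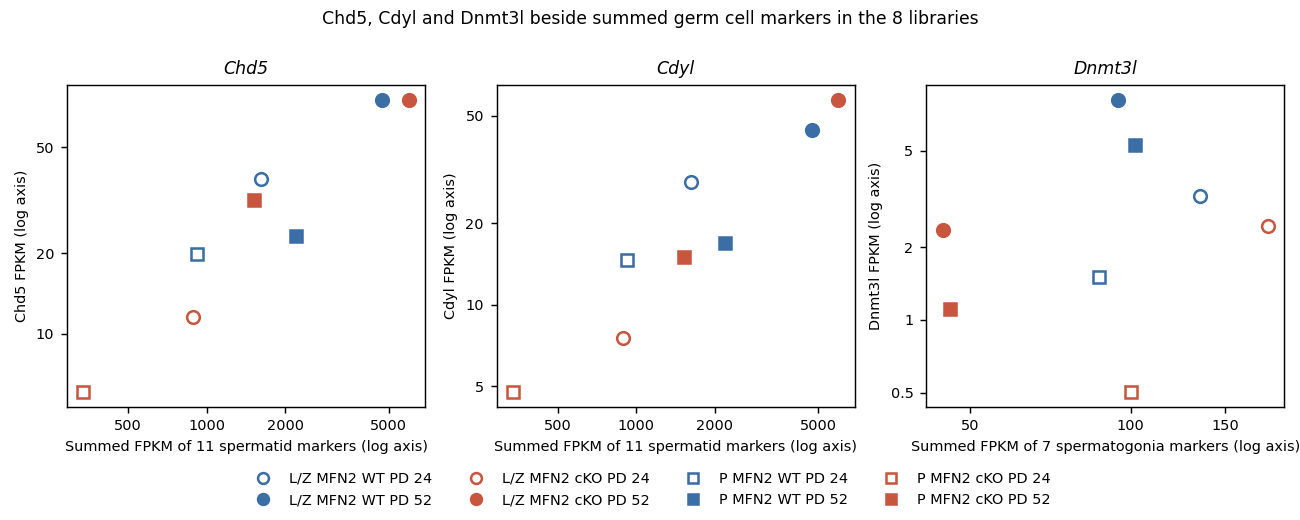
FPKM of Chd5 and of Cdyl (vertical log axes) against the summed FPKM of 11 spermatid markers (horizontal log axis), and FPKM of Dnmt3l against the summed FPKM of 7 spermatogonia markers, in the 8 libraries, with PD 24 as open and PD 52 as filled symbols. Chd5 and Cdyl are lowest in the library with the lowest spermatid sum, 336 FPKM, while Dnmt3l is lowest in a library whose spermatogonia sum, 100.2 FPKM, lies mid-range.

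Dot1l is the enzyme that methylates H3 at lysine 79, a mark of transcribed genes, and it is needed for normal spermatid chromatin. At PD 24 it was 78.2 and 46.6 FPKM in L/Z and 74.4 and 62.1 FPKM in P, MFN2 WT before MFN2 cKO. At PD 52 it was 98.5 and 87.9 FPKM in L/Z and 47.6 and 86.4 FPKM in P. A pair of opposite changes stood out, since MFN2 cKO was 1.68-fold lower in L/Z at PD 24 and 1.82-fold higher in P at PD 52, where the MFN2 WT library was low for Dot1l. The common effect was -0.08 ± 0.28 (SE, limma, adjusted p = 0.980), and its sign changed to 0.00067, 0.175, 0.0552 or 0.0315 without L/Z MFN2 WT, L/Z MFN2 cKO or P MFN2 WT at PD 24, or L/Z MFN2 WT at PD 52, in that order. Neither stage (-0.18 ± 0.28, limma, adjusted p = 0.647) nor age (0.27 ± 0.28, limma, adjusted p = 0.489) passed. Without P of MFN2 WT at PD 52 the age effect was 0.59 and passed (limma, adjusted p = 0.0339). Dot1l (ENSMUSG00000061589) lies at chr10:80755206-80795461 of GRCm38, forward strand, and none of its exon bases is shared with another gene.

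Dnmt3l, a cofactor without catalytic activity that directs de novo DNA methylation in premeiotic male germ cells, was the least expressed of the 10 and was lower in MFN2 cKO in all 4 pairs. At PD 24 it was 3.26 FPKM (184 reads, 95% counting interval 2.81 to 3.77) in L/Z of MFN2 WT and 2.43 FPKM (129 reads, 2.03 to 2.89) in MFN2 cKO. In P of the same age it was 1.51 FPKM (91 reads, 1.22 to 1.85) and 0.504 FPKM (28 reads, 0.335 to 0.728). At PD 52 the MFN2 WT libraries had 8.14 FPKM (364 reads) in L/Z and 5.30 FPKM (254 reads) in P, while MFN2 cKO had 2.36 FPKM (103 reads) and 1.11 FPKM (48 reads). In FPKM the MFN2 cKO value was lower by 1.34-fold in L/Z at PD 24 up to 4.79-fold in P at PD 52. On the log2(FPKM + 1) scale the changes were -0.31 (-0.55 to -0.07) and -0.74 (-0.98 to -0.47) at PD 24 and -1.44 (-1.68 to -1.20) and -1.58 (-1.84 to -1.31) at PD 52. With a pseudocount of 0.1 the change in P at PD 24 was -1.41, past 2-fold.

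The common effect of genotype on Dnmt3l was -1.02 ± 0.23 (SE, 95% confidence interval -1.56 to -0.47), the largest of the 10 regulators, with an unadjusted p of 0.00281 from limma, and it did not pass over all genes (limma, adjusted p = 0.393). It kept its direction when any 1 library was left out, from -1.24 to -0.83. The difference between ages was -0.99 ± 0.32 (limma, adjusted p = 0.387). Dnmt3l was lower in P than in L/Z in all 4 comparisons, with a stage effect of -0.79 ± 0.23 (SE, limma, adjusted p = 0.0444). When libraries were left out in turn, the stage effect passed without P of MFN2 WT at PD 52 (limma, adjusted p = 0.0226) and did not pass without each of the other 7, with adjusted p of 0.0503 to 0.130 (limma). Without the filter on FPKM it did not pass either (limma, adjusted p = 0.103). The age effect of 0.72 ± 0.23 did not pass (limma, adjusted p = 0.0642), but passed in 1 fit with a library left out (limma, adjusted p = 0.0279). PD 52 was above PD 24 in 3 of 4 comparisons. Dnmt3l (ENSMUSG00000000730) lies at chr10:78041947-78063622 of GRCm38, forward strand, and shares 2.24% of its exon bases with the antisense gene Aire, which was at most 0.961 FPKM.

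The sum of the 7 markers of spermatogonia moved with Dnmt3l at PD 52 and not at PD 24, and single markers differed. The sum at PD 52 was 94.8 and 44.5 FPKM in L/Z of MFN2 WT and MFN2 cKO, and 102 and 45.9 FPKM in P. At PD 24 it was 135 and 181 FPKM in L/Z and 87.3 and 100.2 FPKM in P, so it was higher in MFN2 cKO while Dnmt3l was lower. At PD 24 6 of the 7 were higher in MFN2 cKO in each stage, and Stra8 was lower, as Dnmt3l was. In L/Z at PD 52 6 of the 7 were lower and Gfra1 was higher, and in P at PD 52 4 of the 7 were lower and Zbtb16, Gfra1 and Kit were higher. Per 1000 FPKM of these markers Dnmt3l was 24.2 and 13.5 in L/Z and 17.3 and 5.03 in P at PD 24, and 85.8 and 53.0 in L/Z and 52.1 and 24.1 in P at PD 52. The ratio was thus lower in MFN2 cKO in all 4 pairs, as the level was. Among the markers Dmrt1 was 22.0 and 8.44 FPKM in L/Z at PD 52, and none of the 7 was at 0 in any library. Markers of somatic cells differed too. The 7 Leydig cell markers summed to between 19.7 and 255 FPKM in MFN2 WT and between 99.0 and 641 FPKM in MFN2 cKO, higher in MFN2 cKO in all 4 pairs. The 8 macrophage markers summed to between 10.3 and 39.5 FPKM in MFN2 WT and between 24.1 and 165 FPKM in MFN2 cKO. The 9 Sertoli cell markers summed to between 21.4 and 205 FPKM in L/Z and between 278 and 657 FPKM in P. The 6 peritubular myoid markers summed to between 161 and 208 FPKM in L/Z and between 37.8 and 59.5 FPKM in P. Single myoid markers differed with age. From PD 24 to PD 52 in L/Z, Actg2 rose from 45.8 to 118 FPKM in MFN2 WT and from 18.1 to 162 FPKM in MFN2 cKO. Acta2 fell there from 91.1 to 41.1 FPKM and from 135 to 35.9 FPKM. The part of somatic cells in the values of Dnmt3l and of the other regulators was not tested.

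For each regulator the pair of protein-coding genes with the most similar course of log2(FPKM + 1) over the 8 libraries was found among 14059 genes, as a description. Every value rests on the same 8 libraries, which differ in genotype, stage and age at once, and with so many genes searched over so few libraries no weight is placed on the size of a value. The nearest were Ttll8 (r = 1.00) and Adam6a (1.00) for Chd5 and Calr3 (1.00) and Pex5l (0.99) for Cdyl. For Kdm3a they were Srms (r = 1.00) and Tox4 (1.00), for Suv39h2 Zfp330 (r = 0.99) and Lamb3 (0.99), for Setdb1 Numa1 (r = 1.00) and Gigyf1 (0.99) and for Ehmt2 Kif21b (r = 0.98) and Trim45 (0.98). For Brdt they were Cchcr1 (r = 0.99) and Ggt7 (0.98), for Epc1 Gramd1c (r = 0.97) and Zfp677 (0.96), for Dot1l Bsn (r = 0.99) and Dst (0.98) and for Dnmt3l Hist1h1a (r = 0.96) and Cd5l (0.96). Calr3, a testis calreticulin of spermatids, had 20.5 FPKM in L/Z of MFN2 WT at PD 24 and 2.99 FPKM in MFN2 cKO. Among the regulators themselves, the strongest negative correlation was that of Kdm3a with Suv39h2 (-0.90). With the other H3K9 methyltransferases among the regulators, Kdm3a had a correlation of -0.48 (Ehmt2) and of 0.59 (Setdb1).

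The other genes of the same pathways were read from 7 lists of 135 genes. For genotype 0 of their tested genes passed (limma, adjusted p under 0.05), so the counts below are for stage and age, to be read against 25.4% and 21.0% of all genes. Of 20 further genes of H3K9 methylation and demethylation, 4 were higher and 0 lower in P, and 0 were higher and 2 lower at PD 52. Phf2, an H3K9 demethylase, had the largest stage effect, 2.40 ± 0.23 (SE, limma, adjusted p = 0.00218), with between 5.91 and 8.91 FPKM in L/Z and between 28.8 and 58.2 FPKM in P. Phf2 was thus higher in P as Kdm3a was. Mphosph8, which binds methylated H3K9, fell by 0.86 ± 0.24 on the log2 scale at PD 52 (SE, limma, adjusted p = 0.0423). Of 34 genes of histone acetylation and its readers, 6 were higher and 2 lower in P, and 3 higher and 3 lower at PD 52. Mrgbp, like Epc1 a subunit of the NuA4/TIP60 complex, rose by 1.30 ± 0.16 in P (SE, limma, adjusted p = 0.00422), and Trrap, the large scaffold of that complex, changed by -0.93 ± 0.25 at PD 52 (SE, limma, adjusted p = 0.0382).

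Of 24 tested genes of nucleosome remodelling, 5 were higher and 0 lower in P, and 0 higher and 3 lower at PD 52, so that none passed in the direction that Chd5 took with age. Rbbp4, a histone chaperone of several remodelling complexes, rose by 0.74 ± 0.20 in P (SE, limma, adjusted p = 0.0328), and Smarca1, an ISWI ATPase, changed by -1.13 ± 0.18 at PD 52 (SE, limma, adjusted p = 0.00835). Of 13 genes of H3K79 methylation and elongation, 2 were higher and 1 lower in P, with Mllt10, the cofactor that Dot1l binds, the strongest at 2.21 ± 0.21 (SE, limma, adjusted p = 0.00218). Mllt10 was between 10.9 and 19.0 FPKM in L/Z and between 53.2 and 101 FPKM in P, whereas Dot1l itself did not pass for stage. With age 1 gene was higher and 3 were lower, led by Mllt6 at -1.05 ± 0.16 (SE, limma, adjusted p = 0.00823). Of 12 tested genes of DNA methylation, 2 were higher and 1 lower in P, led by Mbd1 at 1.18 ± 0.15 (SE, limma, adjusted p = 0.00448), and 0 were higher and 3 lower at PD 52. Dnmt3a, the de novo methyltransferase that Dnmt3l assists, was among the latter at -0.79 ± 0.18 (SE, limma, adjusted p = 0.0212).

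Of 17 genes of meiotic and sex body chromatin, 5 were higher and 1 lower in P, led by Kmt2d at 1.39 ± 0.31 (SE, limma, adjusted p = 0.0177). With age 0 were higher and 1 was lower, Prdm9, the H3K4 methyltransferase that places recombination hotspots, at -0.66 ± 0.18 (SE, limma, adjusted p = 0.0381). Of 11 genes for transition proteins, protamines and testis histones, 0 were higher and 2 lower in P, with Prm3 at -1.48 ± 0.43 (SE, limma, adjusted p = 0.0415). At PD 52 7 were higher and 0 lower, led by Prm2 at 5.40 ± 0.94 (SE, limma, adjusted p = 0.0102). In this list the median coefficient was 2.52 for age, -1.44 for stage and -1.12 for genotype, beside medians over all tested genes of 0.00, -0.04 and -0.04. Chd5, Cdyl, Suv39h2, Dnmt3l, Ehmt2 and Dot1l had coefficients of these same signs for all 3 effects, most of which did not pass the test. The median coefficients for age of the other 6 lists were -0.35 for H3K9, -0.03 for acetylation, -0.36 for nucleosome remodelling, -0.10 for H3K79, -0.47 for DNA methylation and -0.41 for meiotic chromatin. In the pairs at PD 24, Tnp1, Tnp2, Prm1, Prm2, Prm3, Hils1 and H1fnt were at least 2-fold lower in MFN2 cKO in both stages, as Chd5 and Cdyl were. Over the other 6 lists at PD 24, no gene was at least 2-fold lower in either stage, and Smarca1 and Rbbp7 were at least 2-fold higher in L/Z.

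Interaction terms asked whether effects differed between groups. None of the 10 regulators passed for the difference of the genotype effect between ages, between stages, or of the age effect between stages (limma, adjusted p of at least 0.172). Over all genes 1 gene, Gm7993, passed for the first (1930 at an unadjusted p under 0.05, and 326 with limma-voom), 0 for the second (limma, 854 at an unadjusted p under 0.05) and 0 for the third (limma, 1062 at an unadjusted p under 0.05). Chd5, Cdyl and Dnmt3l had the largest terms of genotype with age, 1.81 ± 0.37, 1.71 ± 0.45 and -0.99 ± 0.32 (SE), of which the first pair was positive and the last negative. The remaining 7 lay between -0.12 and 0.84.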

How the data were processed

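The authors prepared RNA with Trizol and a kit that does not mark strand, sequenced paired ends on an Illumina instrument, and deposited 1 table of FPKM made with Novomagic, with 1 column per library and no pooling. The submitters' processing notes name CASAVA 1.4, Bowtie 0.12.2 and the builds mm8 and mm9, but the deposited gene coordinates are those of GRCm38 (98.1% identical to GENCODE M21 among 54409 shared identifiers). The study states DESeq2 as its test, which cannot estimate spread from 1 library a group and was not used here.

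From the deposited FPKM and gene lengths, whole reads were recovered for 100% of values within a tolerance of 0.01 and gave exact Poisson intervals for levels and exact binomial (Clopper-Pearson) intervals for changes at a confidence level of 95%. Depth was 14340665 to 20379950 reads on genes. log2(FPKM + 1) was fitted with limma 3.58.1 (R 4.3.3, empirical Bayes with trend) on genotype, stage and age over 8 libraries, for 21175 genes with an FPKM above 1 in any library, with Benjamini-Hochberg adjustment and a threshold of 0.05, and each interaction was added alone. Adjusted p-values called limma-voom come from the recovered reads. The fit was tested on simulated data, drawn without stage or age effects and with the same dispersion for every gene. There, of 200 changed genes 27 were recovered at a log2 change of 1 with 0 false calls. At 2 it was 198 with 14, and at 3 it was 200 with 9. These rates need not hold for the regulators, whose spread differed. Python 3.11.15, pandas 2.3.3, scipy 1.17.1 and matplotlib 3.10.9 were used for the rest.

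The named genes were the 10 regulators, Mfn2, the 2 genes most correlated with each regulator, the called gene with the largest coefficient in each of 7 pathway lists for each common effect, and genes of 8 marker lists. The list genes named for changes within pairs, and Hist1h2al, Gm11702, Klf1 and Gm7993, fall outside that rule and were named after their values were seen. The regulators, lists and tests were chosen with earlier results of these data known. Alternatives were a pseudocount of 0.1, no filter, a fit limited to protein-coding genes, a further median-of-ratios scaling, no trend, limma-voom, the pair as a block, and leaving out each library. The scaling was set on the 11566 genes with an FPKM above 1 in every library, because over all genes above 0 it left the values as they were.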

Additional observations from a re-analysis of the deposited data

Results flagged for a closer look

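1 result stood out by direction. For Brdt, the bromodomain protein that reads acetylated histones, both PD 24 pairs had MFN2 cKO at or below MFN2 WT (log2 changes of -0.0017 in L/Z and -0.165 in P) and both PD 52 pairs had it above (0.0561 and 0.316). The difference between ages was 0.27 and did not pass the test (limma, adjusted p = 0.814). The L/Z change at PD 24 lay within its counting interval of 0. Dixon's rule for a sample far from the others could not be applied, since each group holds 1 library.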

How the results depend on the processing

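With 1 library per group, the common effects rest on 4 residual degrees of freedom. Of 120 values for counts over alternatives, 74 stayed within 1.5 times the main count. The count of genes called for genotype was 3, against 1 without the filter, 1 with protein-coding genes only, 8 with limma-voom, 29 with the pair as a block and 1 to 5 with a library left out. None of these settings called a regulator for genotype. For stage it was 5388, against 3333 without the filter and 1444 (without L/Z MFN2 WT at PD 24) to 5708. For age it was 4455, against 2326 without the filter and 1492 (without P MFN2 cKO at PD 24) to 6349 (without P MFN2 WT at PD 52). Regulators called for stage were 3, against 5 with protein-coding genes only and 5 with limma-voom (Chd5 and Cdyl besides), and 1 to 4 with a library left out, 1 without L/Z MFN2 WT at PD 24, P MFN2 cKO at PD 24 or P MFN2 cKO at PD 52. Those called for age were 2, against 0 without the filter, 5 with protein-coding genes only, 5 with limma-voom, and 0 to 4 with a library left out, 0 without any of those 3 libraries or L/Z MFN2 cKO at PD 52.

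The difference of the genotype effect between ages was called for 1 gene, against 54 with a pseudocount of 0.1, 0 without the filter, 0 with protein-coding genes only and 326 with limma-voom, and that of age between stages for 0, against 8 with protein-coding genes only. Genes changed at least 2-fold within pairs rose with a pseudocount of 0.1 to 3125 (L/Z) and 2330 (P) at PD 24 and to 2683 and 3364 at PD 52. With protein-coding genes only they were 846, 664, 602 and 791 in the same order. The cause of these shifts was not tested, beyond fewer genes tested in the last case.

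Directions of named regulators turned for small effects only. The genotype effect of Brdt was between -0.073 and 0.164 with a library left out, below 0 without L/Z MFN2 cKO (-0.0079) or P MFN2 WT at PD 52. That of Kdm3a was between -0.0569 and 0.131, below 0 without P MFN2 WT at PD 52. That of Dot1l was between -0.395 and 0.175, and its stage effect between -0.432 and 0.138, above 0 without P MFN2 WT at PD 52. The difference between ages of Suv39h2 was 0.0365 with the further scaling, against -0.03. The labels carry no replicate numbers, so the libraries were paired by stage and age, in the pair block above.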

Other observations

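At PD 52 the transition protein and protamine genes did not move alike in the 2 stages. In L/Z, Tnp1, Tnp2 and Prm1 were at least 2-fold higher in MFN2 cKO, and none of the 11 genes of that list was at least 2-fold lower. In P, Tnp1, Prm1, Prm2 and Prm3 were at least 2-fold lower, and none was higher by that much. Prm2 had 2801 FPKM in L/Z of MFN2 WT and 4017 in MFN2 cKO, against 1134 and 375 FPKM in P. The summed spermatid markers split by stage in the same way. They were 4722 FPKM in MFN2 WT and 5969 FPKM in MFN2 cKO in L/Z, and 2195 and 1520 FPKM in P. The part of spermatid RNA in these changes was not tested. With 1 library per group the difference between stages was not tested for single pairs.

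Of the DNA methylation list, which does not hold Dnmt3l, only Dnmt1, the maintenance DNA methyltransferase, was at least 2-fold lower in any pair. It had 14.9 FPKM in L/Z of MFN2 WT at PD 52 and 5.53 FPKM in MFN2 cKO, while in P of that age it had 15.3 and 16.0 FPKM. The library with the lowest Dnmt1 was also the one with the lowest Setdb1, 8.35 FPKM, and with the lowest sum of spermatogonia markers, 44.5 FPKM. Whether these values are related was not tested.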
